A study of Homo sapiens with 9 samples.

Results

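The genes described are 10 regulators of melanoma cell state, found by symbol among the 48162 genes of the count table: the transcription factors SOX10, SOX9, PAX3, TFAP2A, ZEB1 and ZEB2, the cell surface receptors NGFR, AXL and EGFR, and the secreted ligand WNT5A. Each symbol matched 1 Ensembl gene. They were followed in SKMEL28, a BRAF-mutant human melanoma cell line grown in medium with serum. Lentiviral short hairpin RNAs were used in every group, followed by selection with puromycin at 1 µg per ml for 3 days. The shCont group carried a hairpin against GFP, the shp16 group a hairpin against p16 (CDKN2A), and the shp16+shATR group hairpins against both p16 and the DNA damage kinase ATR. The labels do not say which hairpin against ATR was used, or whether the shp16 cells also carried a control hairpin. In shp16+shATR against shp16, effects of less ATR, of that hairpin on other genes and of a further transduction therefore cannot be told apart. Each group had 3 RNA sequencing libraries. The design asks what targeting p16 changed in these cells, and what also targeting ATR changed.

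Melanocytes arise from the neural crest, and SOX10, PAX3 and TFAP2A are transcription factors that specify and maintain that lineage, in part through the melanocyte regulator MITF. Melanoma cells can lose melanocytic identity. In such dedifferentiation the neural crest receptor NGFR, and then AXL, EGFR, WNT5A, SOX9 and ZEB1, are typically gained, while SOX10 and MITF are lost. ZEB2 is the ZEB factor of normal melanocytes, and exchange of ZEB2 for ZEB1 is known from invasive melanoma.

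Library totals ran from 17314662 to 23588174 counts. The sample labels do not say whether the libraries of a group came from separate cultures. The paper describes its mRNA data on lanosterol synthase as technical replicates from a single experiment. Its methods give no RNA assay other than sequencing, but it does not name these libraries as the source of those data. The p-values here therefore measure only the spread between these libraries, which may be technical alone. The libraries labelled shCont replicate 1 and shp16 replicate 1 stood apart from the others of their groups: the chi-square per degree of freedom between libraries was 61.1 and 74.5 for the first and 33.7 and 33.0 for the second, against 1.92 to 8.72 for all other pairs within a group. Of the targeted genes, CDKN2A had 162, 112 and 103 CPM (read counts scaled to library size, TMM-normalized) in shCont, 78.1 to 99.9 in shp16 and 82.4 to 90.0 in shp16+shATR. Its fall in shp16 did not pass the test (log2 fold change -0.48 ± 0.16 SE, adjusted p = 0.0723) and was smaller without both of these libraries (-0.16, adjusted p = 0.0817). Its fall in shp16+shATR against shCont passed (-0.57 ± 0.16, adjusted p = 0.0263; -0.35, adjusted p = 0.000128, without both). ATR fell in shp16+shATR against shp16 (-1.12 ± 0.22, adjusted p = 0.0128; -1.07, adjusted p = 3.08e-10, without both). Each of these 2 calls was lost under 5 of 19 alternatives, among them leaving out any 1 of the shp16+shATR libraries (adjusted p up to 0.0923 for CDKN2A and 0.0707 for ATR). ATR was however at 46.0 CPM in the library labelled shCont replicate 1, against 93.5 and 96.4 in the other shCont libraries and 39.9 to 41.0 in shp16+shATR, which goes against that label, while the CDKN2A level of that library, 162 CPM, was the highest of all. Results are therefore also given without both libraries. Melanoma identity was plain in every library, with the pigment cell genes PMEL at 3258 CPM or more and MLANA at 717 CPM or more.

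The 10 regulators spanned a wide range of levels, compared between genes per transcript length, in FPKM (fragments scaled by gene length and sequencing depth). SOX10 stood first with a mean of 301.7 FPKM over the 9 libraries, above 99.2% of the genes tested. TFAP2A followed at 47.2, PAX3 at 27.3, ZEB2 at 26.6, NGFR at 3.15 and AXL at 0.575 FPKM. SOX9 (0.0575), EGFR (0.0438), ZEB1 (0.0339) and WNT5A (0.0188 FPKM) were close to absent. SOX10 and TFAP2A did not overlap their lower neighbour in any group. PAX3 and ZEB2 overlapped in shCont, ZEB2 lay above PAX3 in every shp16 library, and PAX3 lay above ZEB2 in every shp16+shATR library. NGFR and AXL likewise overlapped in shCont, at 0.486 to 0.998 and 0.376 to 0.638 FPKM, and were apart in both other groups. EGFR lay above SOX9 in every shCont library (0.0326 to 0.0718 against 0.0108 to 0.0135 FPKM), below it in every shp16 library, and overlapped it in shp16+shATR. EGFR and ZEB1 overlapped in all 3 groups. SOX10 and ZEB2 were thus present, and SOX9 and ZEB1 near 0, in all 9 libraries.

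**Figure D1:**
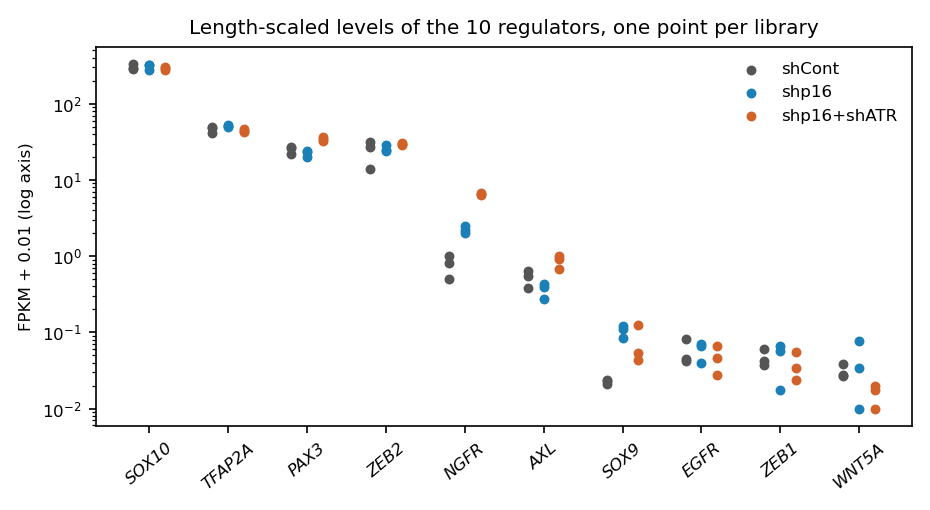
FPKM of the 10 regulators (log axis, with 0.01 added so that values of 0 can be drawn), ordered by mean, with 1 point per library and a colour for each group. SOX10 lies between 279 and 330 FPKM in all 9 libraries, SOX9, EGFR, ZEB1 and WNT5A lie at or below 0.115 FPKM, and NGFR shows the widest separation between groups among the expressed genes.

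A minimum on counts left 7 of the 10 regulators to be tested, SOX9, ZEB1 and WNT5A falling below it. For shp16 against shCont 1 of these 7, NGFR, passed the test as higher, where 14.8% of all 15776 genes tested passed and 7.23% passed as higher. Between shp16+shATR and shp16 3 of 7 passed, NGFR, AXL and PAX3, all higher in shp16+shATR, against 6.22% of all genes and 2.73% as higher. Between shp16+shATR and shCont 2 of 7 passed, NGFR and PAX3, both higher, against 23.6% of all genes and 10.9% as higher. The median log2 fold change of the 7 was 0.08, 0.19 and 0.32 in these comparisons, and that of all genes -0.02, 0.00 and -0.02. By the libraries alone, 2, 4 and 3 of the 7 did not overlap between the groups, where 33.6%, 37.7% and 41.5% of all genes did not. These comparisons share libraries, shp16 between the first and second, shp16+shATR between the second and the last and shCont between the first and the last, and are not independent of each other.

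**Figure D2:**
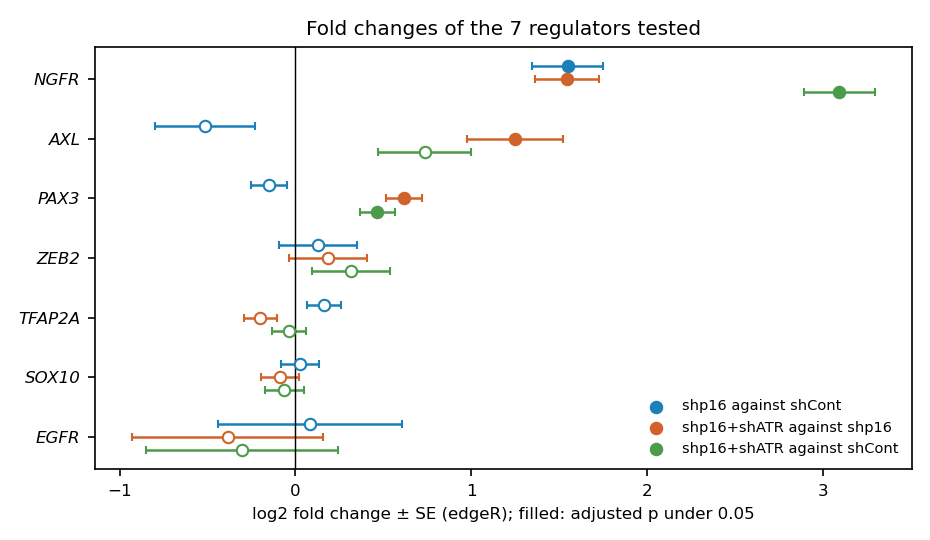
Log2 fold change (points) and standard error (bars) of the 7 regulators tested in 3 comparisons, from edgeR's quasi-likelihood fit. Filled points passed an adjusted p of 0.05: NGFR in all 3 comparisons, AXL in shp16+shATR against shp16, and PAX3 in both comparisons of shp16+shATR. SOX10, TFAP2A, ZEB2 and EGFR have open points throughout.

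Without the libraries labelled shCont replicate 1 and shp16 replicate 1, an alternative chosen after their distance was seen, the estimated biological coefficient of variation fell from 0.149 to 0.0553 and more of all genes passed. In shp16 against shCont 5 of 7 regulators then passed, 2 higher and 3 lower, against 32.7% of all genes. Between shp16+shATR and shp16 5 of 7 passed, 4 higher and 1 lower, against 26.7%. Between shp16+shATR and shCont the count stayed at 2 of 7, against 44.3%. NGFR and PAX3 passed in the same comparisons and the same direction as with all 9 libraries, and the regulators gained are named with their values in what follows.

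NGFR, the low-affinity neurotrophin receptor CD271 and a marker of neural crest stem cells (at chr17:47572655-47592379), rose at both steps. Gene positions given here are the deposited ones, which for nearly all genes are not those of GRCh38. Its level was 2.83, 3.29 and 1.65 CPM in the shCont libraries, 7.38, 7.21 and 8.14 in shp16, and 21.4, 22.5 and 22.5 in shp16+shATR. No group overlapped another, and every shp16 library lay between the shCont and the shp16+shATR libraries. The rise was 2.92-fold in shp16 against shCont (log2 fold change 1.55 ± 0.20, adjusted p = 0.000453), again 2.92-fold in shp16+shATR against shp16 (1.55 ± 0.18, adjusted p = 0.000987), and 8.53-fold in shp16+shATR against shCont (3.09 ± 0.20, adjusted p = 2.23e-06). From bulk RNA, more NGFR-positive cells and more NGFR RNA per cell cannot be told apart. In reads, the shCont libraries held 33 to 64 and the shp16+shATR libraries 371 to 519. Even the highest level, 6.67 FPKM, was far under that of SOX10 in the same cells.

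NGFR is also expressed by basal keratinocytes, and 3 keratin genes were, like NGFR, higher in shp16 and in shp16+shATR than in shCont. Between shp16+shATR and shp16 their log2 fold changes were below 0 (KRT5 -0.75, KRT14 -0.21 and KRT1 -0.81). KRT5, KRT14 and KRT1, structural keratins of the epidermis, had 0 counts in the shCont libraries apart from 0.154 CPM of KRT14 in replicate 2. In shp16 they had 2.03 to 2.99, 2.09 to 2.96 and 2.05 to 9.82 CPM, and in shp16+shATR 0.359 to 2.25, 1.13 to 2.77 and 1.33 to 4.15 CPM. Of the 6 keratinocyte markers listed, 5 were tested, and these 3 passed as higher in shp16 and in shp16+shATR against shCont, none between shp16+shATR and shp16. Of all genes 14.8% passed in shp16 against shCont, 23.6% in shp16+shATR against shCont and 6.22% in shp16+shATR against shp16. The summed level of the list was 22.3 to 33.9 CPM in shCont, 33.2 to 52.3 in shp16 and 32.3 to 43.3 in shp16+shATR, most of it KRT10. TP63, which marks basal keratinocytes, was too low to be tested and had 0.0442, 0 and 0 CPM in shCont, 0.0949 to 0.341 in shp16 and 0.0513 to 0.0865 in shp16+shATR. These CPM ranges did not overlap. All shCont and shp16+shATR values and the lowest shp16 value lay below the level of 3 counts in a library (0.127 to 0.173 CPM). The separation thus rests on a few reads. The part of such RNA in the NGFR result was not tested. Of the 7 fibroblast markers 5 were tested and 3, COL1A2, COL3A1 and DCN, passed as higher in shp16+shATR against shCont, each under 1.1 CPM in every library. Without both libraries that stood apart, all 5 tested fibroblast markers passed as higher in shp16 against shCont, where none had passed with all libraries, and 4 passed as higher and 1 as lower in shp16+shATR against shCont. Of the 5 keratinocyte markers 4 then passed as higher in both of these comparisons. Between shp16+shATR and shp16 no marker of either list passed as higher and 1 fibroblast marker passed as lower. Reads of COL1A1, COL1A2 and COL3A1 in shCont came only from replicate 1 (0.49, 0.31 and 0.13 CPM). Without that library their shCont level was 0, so their calls as higher in that fit rest on very low counts.

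Of the ligands and partner receptors of NGFR, the neurotrophins BDNF, NTF3 and NTF4 and the receptors NTRK2 and NTRK3 were nearly absent. They were at or below 0.839 CPM in all libraries, NTF3 at 0 in each, and none passed the minimum on counts. SORT1, which encodes sortilin, a co-receptor of NGFR for proneurotrophins, was abundant, with 829, 999 and 1109 CPM in shCont, 1168 to 1212 in shp16 and 1511 to 1578 in shp16+shATR. With all libraries it passed in shp16+shATR against shCont (0.66 ± 0.12, adjusted p = 0.0024). Values in the other comparisons were 0.29 (adjusted p = 0.135) in shp16 and 0.37 (adjusted p = 0.0998) in shp16+shATR against shp16, and both passed without both libraries that stood apart (adjusted p = 0.0301 and 2.92e-05).

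PAX3, a paired box factor that acts with SOX10 on MITF (at chr2:223064607-223163715), was higher in shp16+shATR than in either other group. The shCont libraries had 82.3, 92.5 and 95.4 CPM, the shp16 libraries 75.8, 84.8 and 82.5, and the shp16+shATR libraries 126, 128 and 120. All shp16+shATR libraries lay above all 6 others, while shCont and shp16 overlapped. The rise was 1.54-fold against shp16 (0.62 ± 0.10, adjusted p = 0.00507) and smaller against shCont (0.47 ± 0.10, adjusted p = 0.00652). In shp16 against shCont the value was -0.15 ± 0.10 (adjusted p = 0.347). PAX3 fell there without the library labelled shCont replicate 1 (-0.22, adjusted p = 0.0378) and without both libraries that stood apart (-0.17, adjusted p = 0.042).

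AXL, a receptor tyrosine kinase of the TAM family (at chr19:41725108-41767671), was expressed at a low level and was highest in shp16+shATR. It had 1.86, 2.47 and 3.00 CPM in shCont, 2.13, 1.23 and 1.75 in shp16 and 3.11, 4.59 and 4.41 in shp16+shATR, which are 26 to 106 reads per library. The shp16+shATR libraries lay above all others, the lowest of them by a small margin over the highest shCont library, while shCont and shp16 overlapped. AXL rose 2.38-fold in shp16+shATR against shp16 (1.25 ± 0.27, adjusted p = 0.0208). That call did not hold when shp16 replicate 2 (1.06, adjusted p = 0.0914) or 3 (1.27, adjusted p = 0.0751) or shp16+shATR library b (1.14, adjusted p = 0.104) or c (1.18, adjusted p = 0.0835) was left out, and it held without both libraries that stood apart (1.44, adjusted p = 0.000399). Against shCont the value was 0.74 ± 0.26 (adjusted p = 0.0642), and it passed without shCont replicate 3 (0.91, adjusted p = 0.0473). In shp16 against shCont it was -0.51 ± 0.28 (adjusted p = 0.25), and AXL fell in that comparison without both libraries that stood apart (-0.87, adjusted p = 0.0295).

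**Figure D3:**
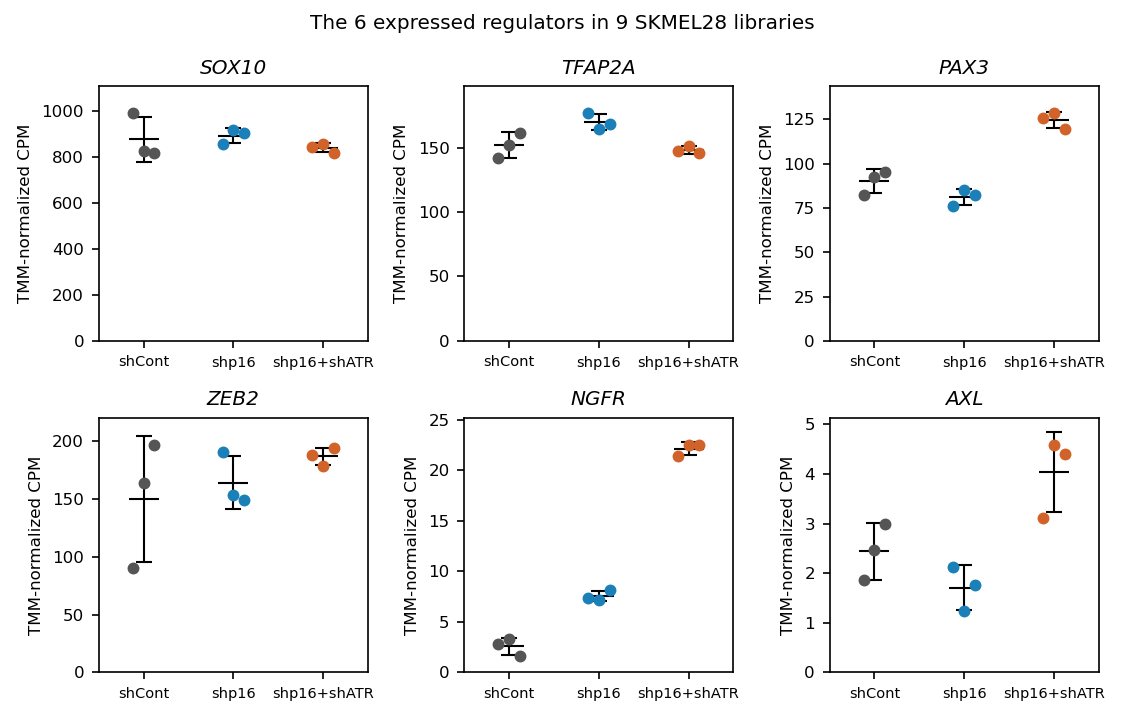
TMM-normalized CPM of the 6 regulators above 1 CPM, each panel from 0, with points for the 3 libraries of a group and bars for the mean ± SD. NGFR steps up from shCont to shp16 to shp16+shATR, PAX3 and AXL are higher in shp16+shATR, and the library labelled shCont replicate 1 (the left point of each shCont set) is low for ZEB2, at 90.0 CPM, and high for SOX10, at 989 CPM.

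The promoters of AXL and PAX3 are printed because both genes were higher in shp16+shATR than in shp16. RefSeq windows (GRCh38.p14) of the 250 bases before a transcript start were found for 7 of the 10 regulators and not for SOX10, SOX9 and NGFR. They are written from 5′ to 3′ on the strand of the gene, AXL at chr19:41218973-41219222 on the plus strand and PAX3 at chr2:222298999-222299248 on the minus strand, and the capitals mark matches, on either strand, to the motifs searched.
AXL: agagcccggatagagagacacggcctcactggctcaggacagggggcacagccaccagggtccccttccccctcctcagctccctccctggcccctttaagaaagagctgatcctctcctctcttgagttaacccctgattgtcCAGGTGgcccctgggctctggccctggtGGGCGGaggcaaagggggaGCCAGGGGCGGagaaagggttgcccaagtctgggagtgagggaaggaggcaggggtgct
PAX3: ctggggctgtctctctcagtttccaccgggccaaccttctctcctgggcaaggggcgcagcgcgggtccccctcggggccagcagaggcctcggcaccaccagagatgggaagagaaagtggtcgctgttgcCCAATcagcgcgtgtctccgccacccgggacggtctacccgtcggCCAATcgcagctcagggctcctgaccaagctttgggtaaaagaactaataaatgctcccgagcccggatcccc
The AXL window holds 1 CACCTG, the E-box that ZEB and SNAI factors bind (read here as its reverse complement), 1 GCCNNNGGC, the TFAP2 site, and 2 GC boxes (GGGCGG), the second sharing 4 bases with the TFAP2 site. The PAX3 window holds 2 CCAAT boxes (CCAAT) and none of the other motifs. Neither window holds ACAAAG, a core of SOX sites, CACGTG, the E-box of MITF, TGANTCA, the AP-1 site, or GGAATG, a TEAD site, although a second AXL window, at chr19:41226505-41226754, holds 1 ACAAAG and 1 GGAATG. Among all 35116 windows 17.5% hold CACCTG, 19.8% GCCNNNGGC, 42.6% GGGCGG, 32.0% CCAAT, 13.7% ACAAAG, 6.34% CACGTG, 6.57% TGANTCA and 11.9% GGAATG. These matches are a description of letters and show no binding.

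SOX10, the SRY-box factor that the melanocyte lineage depends on (at chr22:38366693-38383429), kept a similar level in the 3 groups. It had 989, 825 and 816 CPM in shCont, 856, 917 and 904 in shp16 and 843, 858 and 819 in shp16+shATR. The groups overlapped in every comparison. Its log2 fold changes were 0.03 ± 0.11 (adjusted p = 0.907), -0.09 ± 0.11 (adjusted p = 0.729) and -0.06 ± 0.11 (adjusted p = 0.727) for shp16 against shCont and for shp16+shATR against shp16 and then shCont. The sign of the first turned with upper-quartile scaling (-0.03), and without both libraries that stood apart it passed at 0.15 (adjusted p = 0.0344).

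TFAP2A, the activator protein 2 factor of the neural crest (at chr6:10393419-10419892), moved little. It had 142, 152 and 162 CPM in shCont, 177, 165 and 169 in shp16 and 147, 151 and 146 in shp16+shATR. Every shp16 library lay above every other library, by a margin that did not pass the test against shCont (0.16 ± 0.10, adjusted p = 0.286) or for shp16+shATR against shp16 (-0.20 ± 0.10, adjusted p = 0.274). The latter passed as lower in the fit of those groups alone (-0.20, adjusted p = 0.0394), without the library labelled shCont replicate 1 (-0.20, adjusted p = 0.0383) and without both libraries that stood apart (-0.18, adjusted p = 0.0149).

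ZEB2, a zinc finger repressor of E-box genes (at chr2:145145568-145282147), passed in no comparison with all 9 libraries. It had 90.0, 163 and 197 CPM in shCont, 190, 153 and 149 in shp16 and 188, 179 and 194 in shp16+shATR. The groups overlapped in each comparison, the library labelled shCont replicate 1 was lowest, and shp16 replicate 1 was above the other shp16 libraries. Leaving out either of these alone changed no call, although the value of shp16 against shCont turned to -0.14 (adjusted p = 0.401) without the first. Its log2 fold changes were 0.13 ± 0.22 (adjusted p = 0.744), 0.19 ± 0.22 (adjusted p = 0.709) and 0.32 ± 0.22 (adjusted p = 0.34), in the order given for SOX10. Without both libraries that stood apart the first was -0.26 (adjusted p = 0.0106) and the second 0.30 (adjusted p = 0.00225), so that ZEB2 passed as lower in shp16 and as higher in shp16+shATR against shp16.

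The remaining regulators were counted by a few reads per library, listed here in the order shCont, shp16 and shp16+shATR. SOX9, a SOX factor of the early neural crest (at chr17:70117161-70122561), had 1, 1 and 1 reads, then 9, 6 and 8, then 3, 3 and 9. All libraries of both knockdown groups lay above all shCont libraries. Summed over a group these were 3, 23 and 15 reads, a ratio of 7.81 for shp16 over shCont (exact 95% interval 2.36 to 40.6, counting error only) and 5.19 for shp16+shATR over shCont (1.47 to 28.0). With no minimum on counts SOX9 passed in shp16 against shCont (2.84 ± 1.01, adjusted p = 0.0486) and not in shp16+shATR against shCont (2.25 ± 1.05, adjusted p = 0.156). In that fit the SE of SOX10, PAX3, TFAP2A and ZEB2 in shp16 against shCont lay between 0.135 and 0.140. With the minimum it ran from 0.0956 to 0.222. Calls with no minimum thus hardly use the spread of each gene. Its level in shp16, 0.0957 FPKM, was still far below that of SOX10.

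EGFR, the epidermal growth factor receptor (at chr7:55086714-55324313), had 8, 6 and 14 reads, then 12, 6 and 11, then 3, 8 and 11. Its log2 fold changes were 0.08 ± 0.52, -0.39 ± 0.54 and -0.30 ± 0.55, with adjusted p of 0.731 or more. The groups overlapped throughout. ZEB1, which promotes the mesenchymal state (at chr10:31607424-31818742), had 4, 6 and 4 reads, then 6, 1 and 7, then 5, 2 and 3. Ratios of its summed counts were 1.02 for shp16 over shCont (0.45 to 2.30) and 0.741 for shp16+shATR over shCont (0.295 to 1.79), so that a change of ZEB1 was not detectable at this depth.

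WNT5A, a ligand of noncanonical Wnt signalling (at chr3:55499743-55523973), had 4, 2 and 2 reads, then 0, 3 and 8, then 1, 1 and 0. Its summed counts were 8, 11 and 2. The ratio of shp16+shATR over shp16 was 0.185 (0.02 to 0.849, counting error only), but the shp16 libraries themselves ran from 0 to 8 reads and overlapped shp16+shATR. Every shp16+shATR library lay below every shCont library, by 1 read or more, with a ratio of 0.259 (0.0268 to 1.30). With no minimum on counts its log2 fold change in shp16+shATR against shp16 was -2.24 ± 1.35 (adjusted p = 0.526). The antisense genes ZEB1-AS1, ZEB2-AS1, WNT5A-AS1 and EGFR-AS1, whose reads could be counted with those 4 regulators if strand was not used, summed to 0.0442 to 0.312 CPM per library.

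**Figure D4:**
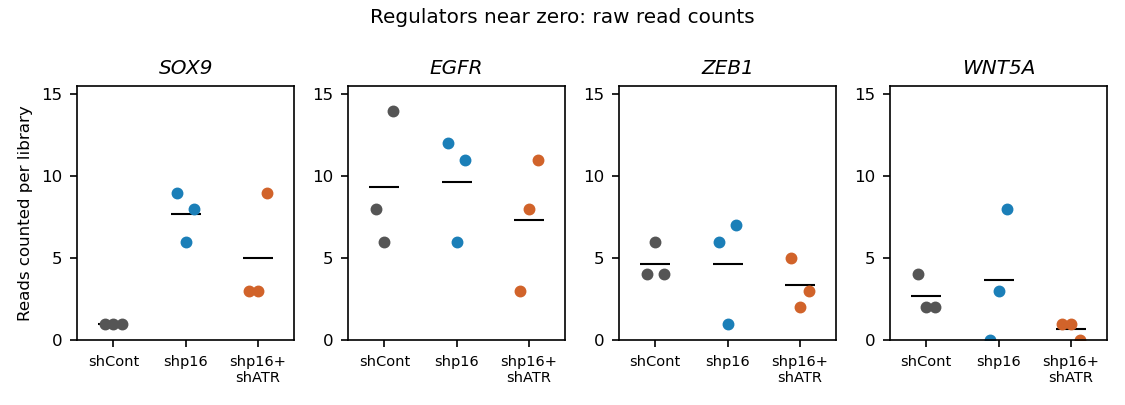
Raw reads counted in each library for SOX9, EGFR, ZEB1 and WNT5A, on 1 axis from 0, with a line at the mean of the 3 libraries of a group. No library has more than 14 reads of any of these genes, and only for SOX9 do the shCont libraries, at 1 read each, lie below both other groups.

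Of 22 other neural crest transcription factors listed 20 were tested, and members passed in both directions. In the counts of this and the following lists, a gene said to have risen or fallen is one that passed. Over all genes the share that passed was 14.8% in shp16 against shCont, 6.22% in shp16+shATR against shp16 and 23.6% in shp16+shATR against shCont, and without both libraries that stood apart 32.7%, 26.7% and 44.3%, which are the shares to set beside the counts of this and the following lists. In shp16 against shCont 5 rose and 3 fell, among them FOXD3, a factor of early neural crest cells, which rose (0.95 ± 0.16, adjusted p = 0.00189), and ETS1 (0.82 ± 0.16, adjusted p = 0.00612). The inhibitors of differentiation ID3 (-0.99 ± 0.18, adjusted p = 0.00346) and ID1 (-0.76 ± 0.18, adjusted p = 0.0183) fell. From shp16 to shp16+shATR 1 rose and 2 fell: ID1 rose (0.98 ± 0.18, adjusted p = 0.00986), and SOX4 (-0.61 ± 0.15, adjusted p = 0.039) and SNAI2 (-0.59 ± 0.09, adjusted p = 0.00427) fell. SNAI2, the neural crest repressor Slug, had 189 to 205 CPM in shCont, 180 to 187 in shp16 and 118 to 126 in shp16+shATR, with shp16+shATR apart from both others. TWIST1, a mesenchymal factor, had values of 0.33 (adjusted p = 0.138) and -0.10 (adjusted p = 0.754) in these comparisons. Against shCont, in shp16+shATR, 3 rose and 4 fell, FOXD3 (1.06) and NR2F2 (0.73) among the former and MSX1 (-1.09) and ID3 (-1.05) among the latter. Without both libraries that stood apart the counts were 8 higher and 4 lower, 4 and 4, and 7 and 6 in the 3 comparisons.

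Of 12 tested SOX10 targets and genes of the Schwann or melanocyte lineage, 3 rose and 4 fell in shp16, and 3 rose and 1 fell in shp16+shATR against shp16. ERBB3, a neuregulin receptor and SOX10 target, rose at both steps (0.44 ± 0.10, adjusted p = 0.0132, and 0.60 ± 0.10, adjusted p = 0.0051), from 122 to 139 CPM in shCont to 170 to 192 in shp16 and 267 to 275 in shp16+shATR. CDH19, a cadherin of Schwann cell precursors, also rose at both steps (0.45 ± 0.12, adjusted p = 0.0318, and 0.76 ± 0.12, adjusted p = 0.00461). The endothelin receptor EDNRB rose in shp16 (0.52 ± 0.10, adjusted p = 0.00643), and S100B fell in shp16 (-0.68 ± 0.15, adjusted p = 0.013) and rose in shp16+shATR against shp16 (0.67 ± 0.15, adjusted p = 0.0254). The median log2 fold change of the list was 0.00 and 0.27.

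None of the 14 melanocytic differentiation markers passed as higher in any of the 3 comparisons, and 2, 3 and 4 passed as lower, where 14.8%, 6.22% and 23.6% of all genes passed. TYRP1, an enzyme of melanin synthesis, fell at both steps (-0.43 ± 0.11, adjusted p = 0.0228, and -0.88 ± 0.11, adjusted p = 0.0014). MITF, TYRP1 and DCT are also in the list of SOX10 targets and lineage genes, so the falls of TYRP1 enter the counts of both lists. The melastatin gene TRPM1 fell in shp16 (-0.48 ± 0.12, adjusted p = 0.0183), and SLC45A2 (-0.49 ± 0.11, adjusted p = 0.0208) and RAB38 (-0.48 ± 0.11, adjusted p = 0.0221), both of melanosomes, fell in shp16+shATR against shp16. MITF had 545, 716 and 794 CPM in shCont, 824, 688 and 669 in shp16 and 614, 606 and 654 in shp16+shATR, with log2 fold changes of 0.09 ± 0.14 (adjusted p = 0.737) and -0.22 ± 0.14 (adjusted p = 0.446). Its groups overlapped in shp16 against shCont and did not between shp16+shATR and shp16. In shp16+shATR against shCont the MITF value was -0.13 ± 0.14 (adjusted p = 0.551). MITF passed as lower in that comparison without both libraries that stood apart (-0.28, adjusted p = 0.000313). In the same fit it did not pass in shp16 against shCont (-0.16, adjusted p = 0.0534) or in shp16+shATR against shp16 (-0.13, adjusted p = 0.0986). Without both libraries that stood apart 2 of the markers passed as higher in each comparison, and 4, 4 and 7 as lower, where 32.7%, 26.7% and 44.3% of all genes passed. The medians with all libraries were -0.11, -0.03 and -0.11, against -0.02, 0.00 and -0.02 for all genes.

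Genes of an invasive or undifferentiated melanoma state passed in both directions in shp16, while in shp16+shATR against shp16 more rose than fell and most did not pass. Of 21 tested, 6 rose and 5 fell in shp16, where their median was -0.09. CDH2, which encodes N-cadherin, rose (1.36 ± 0.12, adjusted p = 2.47e-05), and NNMT (-2.09 ± 0.22, adjusted p = 9.17e-05), PLAUR, the urokinase receptor (-1.64 ± 0.21, adjusted p = 0.000352), and CCN2, listed as CTGF and a YAP/TEAD target (-1.24 ± 0.12, adjusted p = 3.78e-05), fell. With ATR also targeted 8 rose over shp16 and 1 fell, JUN (-0.64 ± 0.10, adjusted p = 0.00357), 12 did not pass, and the median was 0.53 against 0.00 for all genes. Over all genes 2.73% passed as higher in that comparison.

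The genes that rose included THBS1, thrombospondin 1 (1.35 ± 0.16, adjusted p = 0.00103), PLAUR (1.10 ± 0.21, adjusted p = 0.00992), the collagen crosslinking enzyme LOXL2 (0.77 ± 0.12, adjusted p = 0.00339), the AP-1 factor FOSL1 (0.71 ± 0.14, adjusted p = 0.0139) and CDH2 (0.53 ± 0.11, adjusted p = 0.0201). THBS1 had 3.36 to 4.78 CPM in shCont, 5.55 to 6.91 in shp16 and 15.3 to 17.0 in shp16+shATR, without overlap. PLAUR was highest in shCont, at 66.1 to 85.9 CPM, lowest in shp16, at 28.9 or less, and between these in shp16+shATR, at 48.7 to 52.1. Against shCont 8 of the 21 rose and 4 fell. Without both libraries that stood apart the counts were 6 higher and 7 lower, 13 and 2, and 11 and 6.

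**Figure D5:**
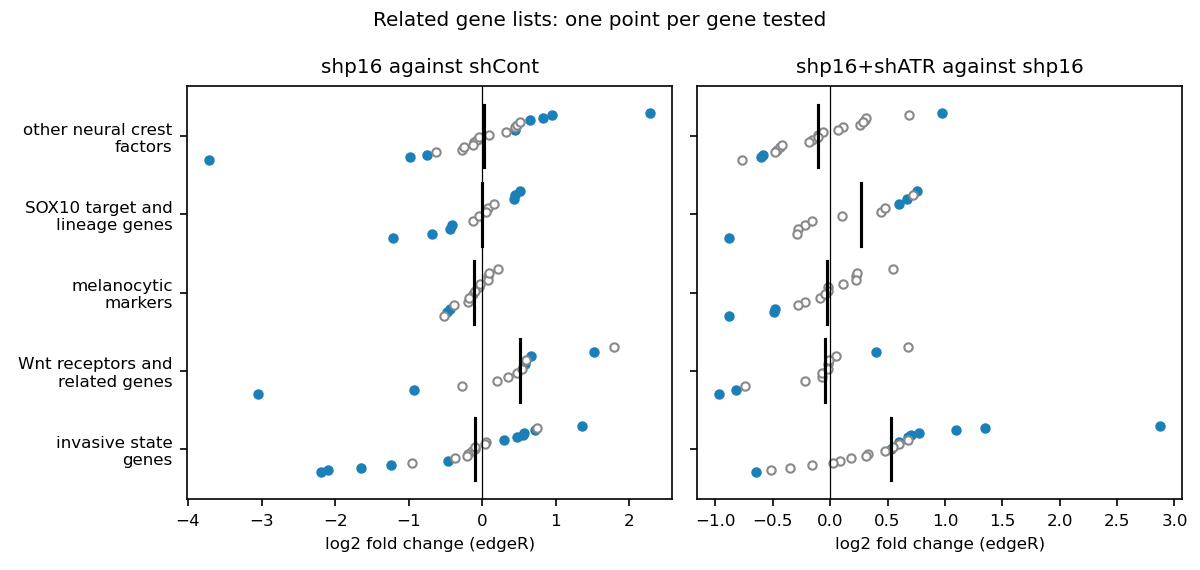
Log2 fold change of each tested gene of 5 related lists in shp16 against shCont (left) and shp16+shATR against shp16 (right). Filled points passed an adjusted p of 0.05 in edgeR, and black lines mark list medians. MITF, TYRP1 and DCT are in both the SOX10 target list and the melanocytic list and are drawn in each. The invasive state list has its median at 0.53 in the right panel and at -0.09 in the left, and the melanocytic list has no filled point above 0 in either.

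Receptor partners and ligands were measured beside AXL, EGFR and WNT5A. All 4 of the AXL list were tested, and the TAM receptors MERTK (0.92 ± 0.21, adjusted p = 0.0121) and TYRO3 (0.50 ± 0.10, adjusted p = 0.00732) rose in shp16, while TYRO3 fell in shp16+shATR against shp16 (-0.51 ± 0.10, adjusted p = 0.0138). The AXL ligand GAS6 had 1.17 to 2.51 CPM over all libraries, with overlapping groups and values of -0.47 (adjusted p = 0.314) and 0.54 (adjusted p = 0.339). Of 6 tested genes of the EGFR list, the ligand gene TGFA fell in shp16 (-1.30 ± 0.21, adjusted p = 0.00165) and the receptor partner ERBB3 rose, as given.

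Of 12 tested receptors of WNT5A and related Wnt genes, 3 rose and 2 fell in shp16, and 1 rose and 2 fell in shp16+shATR against shp16. ROR1, a WNT5A receptor, rose in shp16 (1.52 ± 0.17, adjusted p = 0.000148), from 5.43 to 8.59 CPM in shCont to 18.7 to 24.1 in shp16, and kept 20.0 to 21.8 CPM in shp16+shATR. The frizzled receptor FZD5 (0.67 ± 0.20, adjusted p = 0.0393) and FZD7 (0.59 ± 0.11, adjusted p = 0.00357) rose and the Wnt antagonist DKK1 fell (-0.92 ± 0.21, adjusted p = 0.0123). FZD7 rose again in shp16+shATR against shp16 (0.40 ± 0.11, adjusted p = 0.0447), where the planar polarity gene VANGL2 (-0.97 ± 0.23, adjusted p = 0.028) and the WNT5A co-receptor RYK (-0.82 ± 0.11, adjusted p = 0.00215) fell.

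Epithelial genes that ZEB factors repress were mostly below the minimum on counts, with 4 of 14 tested. CDH1, which encodes E-cadherin, had 1.77, 2.41 and 3.00 CPM in shCont, 16.9, 18.9 and 17.7 in shp16 and 22.3, 20.1 and 22.8 in shp16+shATR. It rose in shp16 (2.90 ± 0.18, adjusted p = 1.44e-06), and its further difference in shp16+shATR did not pass (0.28 ± 0.15, adjusted p = 0.326) although those groups did not overlap. The P-cadherin gene CDH3 rose in shp16 (1.09 ± 0.09, adjusted p = 2.47e-05), and the splicing factor ESRP1 fell in shp16+shATR against shp16 (-0.72 ± 0.11, adjusted p = 0.00378). The RNAs of E-cadherin and N-cadherin were thus both higher in shp16 than in shCont.

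Of the regulators at 5 CPM or more, NGFR, PAX3 and ZEB2 varied most between groups. Over the 9 libraries, which include the group differences themselves, the genes whose log2 CPM followed NGFR most closely among 10736 were CAV1 (r = 0.991), NSG1 (0.990) and ITGAX (0.986). Those nearest to PAX3 were CPT2 (0.975), TSC22D1 (0.968) and SHC1 (0.964), and those nearest to ZEB2 were DNAJC10 (0.992), PJA2 (0.988) and GFM1 (0.987). Without the library labelled shCont replicate 1 the values for ZEB2 were 0.963, 0.930 and 0.925, and those for NGFR stayed at 0.984 or more. With 9 libraries in 3 groups, 77 genes reached r above 0.95 with NGFR, 15 with PAX3 and 128 with ZEB2.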

How the data were processed

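RNA of 9 SKMEL28 libraries was sequenced. The authors deposited raw read counts per gene and FPKM values. The submitters' processing notes name STAR 2.6.1, DESeq2 and GRCh38, with no role given, and the counting program and its use of strand are not given in the sources used here. Deposited gene coordinates equal those of GENCODE 29 on GRCh38 for 248 of 45342 identifiers, and they are printed as deposited; the promoter windows are those of RefSeq on GRCh38.p14. FPKM values equalled each count scaled by gene length and library total (largest relative difference 4.22e-07). The 3 shp16+shATR count columns share 1 name and are called a, b and c, and they match FPKM replicates 1, 2 and 3.

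From the counts, TMM scaling, filterByExpr (minimum count 10) and edgeR 4.0.16's quasi-likelihood test in R 4.3.3 were run on all 9 libraries with 1 coefficient per group. P-values were Benjamini-Hochberg adjusted over 15776 genes, with a threshold of 0.05. The script was tested on simulated data. A library's smallest detectable level, taken as 3 counts, was 0.127 to 0.173 CPM. Intervals and floors cover counting error only. Alternatives were DESeq2 1.42.0, limma 3.58.1 on log2 FPKM with 1 or 0.1 added, other scalings and filters, a replicate block, and libraries left out. Python 3.11.15, scipy 1.17.1 and pandas 2.3.3 were used otherwise.

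The 10 regulators and the gene lists were chosen with earlier results of these data known. Besides the regulators, CDKN2A and ATR, genes named are up to 4 of each list per comparison with the largest log2 fold change among those past the threshold at a mean of 5 CPM or more, with GAS6, ERBB3, SNAI2, TWIST1, MITF, CDH1 and CDH2 whatever their values. JUN, FZD8, BDNF, NTF3, NTF4, NTRK2, NTRK3, SORT1 in comparisons it did not pass, PMEL, MLANA and the keratinocyte and fibroblast markers were named after their values were seen. For the 3 regulators that varied most between groups, the 3 genes with the highest Pearson correlation of log2 CPM are named, with no test. MIA stands for 2 identifiers, and SOX9-AS1, TFAP2A-AS1 and PECAM1 were not matched. Some listed genes, which enter the counts and medians of their lists, are not reported here by name.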

Additional observations from a re-analysis of the deposited data

How the results depend on the processing

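NGFR and PAX3 kept direction and call under all 19 alternatives in both comparisons of shp16+shATR (NGFR 1.22 to 1.60 against shp16 and 2.10 to 3.29 against shCont, PAX3 0.57 to 0.66 and 0.40 to 0.51), and NGFR in shp16 against shCont under 19 of 20 (0.88 to 1.75). Of 634 values under alternatives, 559 kept direction and side of the threshold, or stayed within 1.5 times for counts. Depth limits SOX9, EGFR, ZEB1 and WNT5A, at 14 reads or fewer per library.

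Counts of regulators called in shp16 against shCont were 1 with all libraries, 2 with no minimum on counts (SOX9 added), 1 to 2 with each library left out in turn and 5 without both libraries that stood apart. The fit with no minimum on counts, here and in what follows, hardly used the spread of each gene, as given for SOX9. In shp16+shATR against shp16 the counts of regulators called were 3, 2 to 4 with each library left out and 5 without both. All genes called in shp16 against shCont were 2339, but 1186 in a fit of only the groups compared, 1344 to 4192 with each library left out (4192 without shCont replicate 1) and 5264 without both. In shp16+shATR against shp16 they were 981, but 2878 in a fit of only those groups, 1508 with DESeq2, 292 to 3223 with each left out (292 without library b, 3223 without shCont replicate 1) and 4304 without both. In shp16+shATR against shCont they were 3724, 2354 to 5395 with each left out and 7130 without both. Upper-quartile scaling moved the share of calls that were higher from 48.8% to 38.5% in shp16 against shCont and from 43.8% to 54.2% in shp16+shATR against shp16.

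CDKN2A in shp16 against shCont passed with no minimum on counts (-0.46, adjusted p = 0.0145), with DESeq2 (-0.47, adjusted p = 0.0418) and without shCont replicate 3 (-0.60), within -0.60 to -0.26 with each library left out in turn, and was -0.16 (adjusted p = 0.0817) without both libraries that stood apart. In shp16+shATR against shCont it lost its call in a fit of only those groups (-0.57, adjusted p = 0.051) and without library a, b or c (-0.69 to -0.35 over all left out), and in shp16+shATR against shp16 it passed without both libraries that stood apart (-0.19, adjusted p = 0.0281). ATR in shp16+shATR against shp16 lost its call without shp16 replicate 1 or library a, b or c (-1.15 to -1.07 over all left out), and in shp16 against shCont it ran from -0.124, without shCont replicate 1, to 0.329 and was -0.17 (adjusted p = 0.0421) without both.

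Signs that turned were those of SOX10 in shp16 against shCont with upper-quartile scaling (-0.035) and within -0.0231 to 0.115 over the libraries left out, and in shp16+shATR against shCont within -0.113 to 0.0283, with 0.0251 without both libraries that stood apart. EGFR in shp16 against shCont ran from -0.139 to 0.522, with -0.303 without both, and in shp16+shATR against shCont from -0.743 to 0.133. TFAP2A in shp16+shATR against shCont ran from -0.0896 to 0.0094. ZEB2 in shp16 against shCont ran from -0.140 to 0.373, the lowest without shCont replicate 1, with -0.256 without both. AXL in shp16+shATR against shCont passed with no minimum on counts (adjusted p = 0.0439) and with DESeq2 (adjusted p = 0.0426). The cause of these changes was not tested.

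No pairing by replicate number was seen: deviations of same-numbered libraries correlated at -0.08, 0.01 and -0.09 between shCont and shp16, at 0.04, 0.07 and 0.13 between shCont and shp16+shATR and at -0.11, 0.29 and -0.30 between shp16 and shp16+shATR. With 3 libraries per group, and libraries that stood apart among them, these values cannot show whether the samples were paired. With the replicate block in edgeR 0 regulators were called in shp16 against shCont (NGFR 1.58, adjusted p = 0.0521) and 423 of all genes. The limma fit with the replicate block called 1513 of all genes there and 481 in shp16+shATR against shp16, and ATR there (-0.97, adjusted p = 0.0597), AXL there (0.45, adjusted p = 0.0557) and CDKN2A in shp16+shATR against shCont (-0.54, adjusted p = 0.0739) were not called.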
